A study of Homo sapiens with 24 samples.

Results

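The comparison described here sets the 3 RNA-seq libraries of shYY1 ACHN cells directly against the 3 libraries of shKDM5C ACHN cells, 6 of the 24 libraries of the series, without a control sample in the contrast. ACHN is a human renal cancer cell line, labelled ccRCC. shYY1 cells carried a hairpin against YY1, shKDM5C cells a hairpin against KDM5C, and both were grown in DMEM with 10% fetal bovine serum. The hairpins were expressed from a pLKO.1 lentiviral vector in cells selected with puromycin, so both groups share the vector and the selection and have reduced rather than absent target transcripts. A further 2 ACHN groups are given as reference levels only, namely shNC cells with a control hairpin and Dsh cells, in which both genes were knocked down. By the paper's methods, double-knockdown cells came from YY1-depleted cells that were then infected with a GFP-labelled vector against KDM5C. The same 4 groups exist for HK-2, a non-malignant human kidney proximal tubular epithelial line. Which of several hairpins per gene was sequenced is not given in the sources used here, and nothing states that the replicates came from separate cultures, so p-values measure only the spread between these libraries, which may be technical.

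KDM5C is a demethylase that removes methyl groups from lysine 4 of histone H3, a mark of active promoters and enhancers, and it is encoded on the X chromosome. YY1 is a zinc finger transcription factor that binds DNA directly, activates or represses genes depending on its partners, and helps to hold promoters and enhancers together. The study asked whether KDM5C and YY1 act as partners. The direct contrast asks which transcripts distinguish a renal cancer cell short of the DNA-binding factor from one short of the demethylase.

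Between 18505041 and 19363570 read pairs were counted on genes in the 6 libraries, and no library of either group stood apart in depth. Levels are given as CPM, counts scaled to a common library size with TMM factors, and differences as the log2 fold change of shYY1 minus shKDM5C, so that a positive value means a higher level in shYY1 cells. PAX8 and the keratins KRT8, KRT18 and KRT19 were present in every library, and the summed level of the 10 renal epithelial markers was 3770 to 3905 CPM in shKDM5C and 3723 to 3781 CPM in shYY1 libraries. The cadherin gene CDH6, also on that list, had a mean of 0.325 CPM in the shKDM5C and 0.412 CPM in shYY1 libraries. Of the markers of other cells, all 8 endothelial and 8 of 9 leukocyte genes had group means under 1 CPM. The 9 fibroblast markers summed to 464 to 513 CPM in shKDM5C and 434 to 450 CPM in shYY1 libraries, nearly all of it from THY1, COL1A1 and PDGFRB, while COL1A2 and LUM had no counts in any of these libraries. THY1 alone had means of 412 and 252 CPM. In bulk RNA, fewer cells of a type and less RNA per cell cannot be told apart.

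The transcripts aimed at by the hairpins served to check the labels. KDM5C (ENSG00000126012), at chromosome X 53191321 to 53225422 of GRCh38, had 41.3, 43.7 and 42.0 CPM in the shKDM5C libraries and 87.4, 87.4 and 92.0 CPM in the shYY1 libraries. It was thus higher in every shYY1 library, with a log2 fold change of 1.08 ± 0.0462 (SE, adjusted p = 6.83e-15, edgeR). The shNC mean lay between them at 70.1 CPM. YY1 (ENSG00000100811), at chromosome 14 100238298 to 100282792, had 149.5, 143 and 139 CPM in shKDM5C and 78.4, 71.7 and 75.9 CPM in shYY1 libraries. Here every shYY1 library was lower, with a log2 fold change of -0.92 ± 0.0421 (SE, adjusted p = 2.26e-14, edgeR), against a shNC mean of 138 CPM. Each library therefore carried less of the transcript that its label names.

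YY1 recognises a short DNA element with the core ATGGCG. The 9-letter form AANATGGCG was searched on both strands in the RefSeq promoters of GRCh38.p14, each running from 250 bases before to 50 bases after a transcript start. It occurred in 3.19% of all 35116 promoters of the table and in 5.62% of the 16481 promoters of genes tested. Among promoters of genes at an adjusted p under 0.05, it stood in 4.30% of those higher and 6.66% of those lower in shYY1 cells, and in 5.76% of those that did not pass. The 871 genes tested that hold it had a median log2 fold change of -0.079, with 23.9% higher and 40.6% lower. Over all genes tested the median was -0.00027, with 30.1% higher and 30.5% lower. With trends of GC content and gene length taken out, the medians were -0.086 for genes that hold it and -0.031 for all. Among the largest differences the element was rare in both directions, in 0.811% of promoters of genes that were higher at a log2 difference of 1.5 or more in size and in 2.03% of those lower. A match is a run of letters and was not tested as a binding site.

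The promoters of 4 genes that hold the element are shown, with the match in capitals. They include KDM5C itself and genes that differed in either direction, not the largest differences. They were chosen after their values were seen. The KDM5C window is chrX:53225158-53225457 on the minus strand, and its match starts at base 9 of the transcript. CELSR3 is at chr3:48662837-48663136 on the minus strand with the match 114 bases upstream. SCN8A is at chr12:51590983-51591282 on the plus strand with the match at base 13 of the transcript. SLC17A5 is at chr6:73653943-73654242 on the minus strand with the match 83 bases upstream.
KDM5C: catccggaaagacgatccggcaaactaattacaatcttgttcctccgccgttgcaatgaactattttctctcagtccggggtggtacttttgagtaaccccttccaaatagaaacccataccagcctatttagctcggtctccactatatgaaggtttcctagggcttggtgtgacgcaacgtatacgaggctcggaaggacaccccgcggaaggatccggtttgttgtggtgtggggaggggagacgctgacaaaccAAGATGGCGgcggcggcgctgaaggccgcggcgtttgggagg
CELSR3: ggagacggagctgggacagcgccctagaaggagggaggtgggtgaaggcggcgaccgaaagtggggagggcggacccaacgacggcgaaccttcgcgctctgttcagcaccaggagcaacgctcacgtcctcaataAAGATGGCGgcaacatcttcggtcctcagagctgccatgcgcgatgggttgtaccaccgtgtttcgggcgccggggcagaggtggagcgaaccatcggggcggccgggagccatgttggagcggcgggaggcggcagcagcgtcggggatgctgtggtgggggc
SCN8A: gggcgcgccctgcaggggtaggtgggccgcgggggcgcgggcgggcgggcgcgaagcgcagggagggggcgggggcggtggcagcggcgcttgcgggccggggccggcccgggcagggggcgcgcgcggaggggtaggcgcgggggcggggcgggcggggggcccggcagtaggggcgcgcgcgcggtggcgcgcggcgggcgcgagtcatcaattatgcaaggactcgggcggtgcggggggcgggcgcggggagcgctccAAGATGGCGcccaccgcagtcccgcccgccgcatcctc
SLC17A5: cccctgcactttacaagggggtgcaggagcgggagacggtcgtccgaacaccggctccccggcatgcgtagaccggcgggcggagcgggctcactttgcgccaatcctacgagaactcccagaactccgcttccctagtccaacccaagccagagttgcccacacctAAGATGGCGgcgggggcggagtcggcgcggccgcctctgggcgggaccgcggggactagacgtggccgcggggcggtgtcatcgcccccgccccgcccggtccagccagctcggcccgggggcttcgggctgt
All 4 matches lie on the strand of the gene. CELSR3, an adhesion receptor of the flamingo cadherin family, had 19.8 ± 0.638 CPM in shKDM5C and 7.56 ± 1.12 CPM in shYY1 libraries (SD, n = 3), a log2 fold change of -1.37 (SE 0.0999). The voltage-gated sodium channel gene SCN8A was lower as well, with 22.5 ± 0.575 CPM in the shKDM5C and 8.53 ± 0.738 CPM in the shYY1 group (SD, n = 3). In both genes the shNC mean of 21.7 or 21.6 CPM was close to the shKDM5C libraries. SLC17A5, the lysosomal sialic acid exporter, was higher in shYY1 cells, with 15.4 ± 0.678 CPM in shKDM5C, 46.2 ± 1.57 CPM in shYY1 (SD, n = 3) and 36.4 CPM in shNC cells. KDM5C was also higher in shYY1 cells, as described above, but it is the target of the hairpin in the shKDM5C libraries. Its direction in this contrast was therefore set by the design. The shYY1 mean of 89.0 CPM was above the shNC mean of 70.1 CPM, a difference that was not tested here.

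Across the transcriptome the 2 knockdowns differed in many genes. Of 16090 genes that passed edgeR's filter on low counts, 535 were higher and 327 lower in shYY1 cells at the threshold used here, an adjusted p under 0.05 with a log2 difference of 1.5 or more in size, which is 3.33% and 2.03% of the genes tested and 5.36% together. At an adjusted p under 0.05 with any fold change, 4850 genes were higher and 4911 lower, 60.7% in all. With so many small differences past the test, a p-value alone separates few genes from the rest, and the size of a difference carries more information. The median absolute log2 fold change was 0.31, and 90% of genes lay between -0.90 and 1.24. The 2 groups did not overlap in 64.7% of all genes tested and in 857 of the 862 past the threshold. Of these 862 genes, 665 were protein coding and 116 were long noncoding RNAs.

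**Figure D1:**
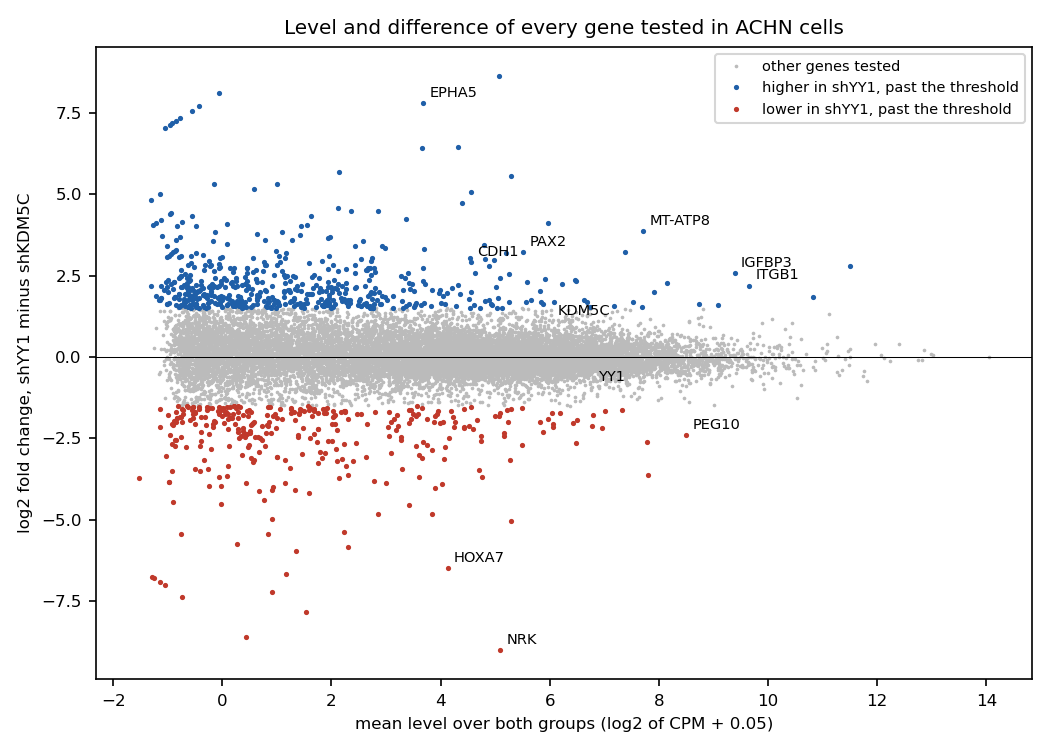
Log2 fold change of shYY1 minus shKDM5C (vertical axis) against the mean level over both groups (horizontal axis, log2 of CPM + 0.05) for the 16090 genes tested in ACHN cells, with the 535 higher and 327 lower genes past the threshold in colour. IGFBP3 (2.58) and ITGB1 (2.20) combine a high level with a large difference, and NRK lies lowest at -9.01.

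The shNC cells, which did not enter the contrast, place these differences. For 362 of the 535 genes higher in shYY1 cells (67.7%) the shNC mean was nearer to the shYY1 mean on the log2 scale, so that the shKDM5C level was the more distant one. For 227 of the 327 genes lower in shYY1 cells (69.4%) the shNC mean was nearer to the shKDM5C mean. The shNC mean lay between the 2 knockdowns for 434 of the higher and 222 of the lower genes. The Dsh mean was nearer to shKDM5C than to shYY1 for 393 of the higher (73.5%) and 230 of the lower genes (70.3%). These shares were counted only for genes past the threshold, so whether they are particular to those genes was not tested.

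Genes were ranked among protein-coding ones past the threshold with at least 10 CPM in the higher group and no overlap of replicates. The 12 with the largest positive differences come first. ADAM28, a membrane metalloprotease, had 0.212, 0.110 and 0.161 CPM in shKDM5C and 67.7, 65.5 and 66.9 CPM in shYY1 libraries, with 1.30 CPM in shNC cells. The ephrin receptor gene EPHA5 (chromosome 4 65319563 to 65670495) had 0.0531, 0 and 0.269 CPM in shKDM5C and 22.1, 27.0 and 27.2 CPM in shYY1 libraries. Both genes were thus near silent in shKDM5C and shNC cells and present in shYY1 cells, with log2 fold changes of 8.64 ± 0.128 (SE, adjusted p = 4.74e-23, edgeR) and 7.81 ± 0.252 (SE, adjusted p = 4.71e-17, edgeR). SLCO2B1, an organic anion transporter, followed the same course at 0.450 ± 0.0836 CPM in shKDM5C, 39.6 ± 2.58 CPM in shYY1 (SD, n = 3) and 0.547 CPM in shNC cells.

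In several other genes of this group the shNC level lay between the 2 knockdowns. PAX2, a transcription factor of the embryonic kidney that is often active in renal tumours, had 8.97, 9.08 and 8.72 CPM in shKDM5C and 87.7, 82.6 and 76.0 CPM in shYY1 libraries, with a shNC mean of 27.9 CPM. The matrix proteoglycan gene BGN had 1.35 ± 0.0927 CPM in the shKDM5C and 45.5 ± 1.57 CPM in the shYY1 group (SD, n = 3), and 6.12 CPM in shNC cells. The synaptic adhesion gene NRXN3 differed by 4.74, the calcium-binding protein gene S100A4 by 3.45 and the homeobox gene PITX1 by 3.41 on the log2 scale. The endothelin gene EDN1 differed by 3.57, KIAA0040 by 3.34 and C15orf48, which encodes a small mitochondrial protein, by 3.33. All had an adjusted p of at most 9.00e-13 (edgeR).

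MT-ATP8, a short gene of the mitochondrial genome, had 30.6, 25.7 and 24.6 CPM in shKDM5C, 352, 379.5 and 448 CPM in shYY1 and 8.47 CPM on average in Dsh cells, against 364 CPM in shNC cells. It overlaps MT-ATP6 (named after its values were seen), which lies on the same transcript and differed by -0.13, with 5075 CPM in the shKDM5C and 4609 CPM in the shYY1 group. Genes of at most 300 bases had a median log2 fold change of 0.20 (151 genes) and those above 300 and up to 600 bases of 0.22 (427 genes), while genes above 2500 and up to 6000 bases had a median of -0.02 (6955 genes). The part of gene length in the MT-ATP8 value was not tested.

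The largest negative differences left little transcript in shYY1 cells. NRK, an X-linked kinase gene at chromosome X 105822543 to 105958610, had 69.6, 64.2 and 70.7 CPM in shKDM5C and 0.0523, 0.159 and 0.165 CPM in shYY1 libraries. It was at 68.8 CPM in shNC and 79.1 CPM in Dsh cells, so that shYY1 was the only one of the 4 ACHN groups without it, and the log2 fold change was -9.01 (standard error 0.145, adjusted p = 1.92e-22, edgeR). The homeobox gene HOXA7 (chromosome 7 27153716 to 27157936) had 33.9, 36.5 and 33.3 CPM in shKDM5C and 0.366, 0.423 and 0.330 CPM in shYY1 libraries. The groups were far apart, with a log2 fold change of -6.49 (SE 0.142), and the shNC mean was 27.4 CPM. CDH13, a cadherin anchored in the membrane by a lipid, had 76.0 ± 2.59 CPM in shKDM5C, 2.29 ± 0.661 CPM in shYY1 (SD, n = 3) and 40.9 CPM in shNC cells.

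The other genes of this group differed by -4.83 to -3.69. They were the pleckstrin gene PLEK and the exchange factor gene VAV3, which act in signalling at the membrane, the guidance molecule gene SEMA6A, and OXCT1, whose enzyme lets cells use ketone bodies. CREB3L1 encodes a membrane-bound transcription factor that drives secretion of matrix, and COL8A1 a short-chain collagen. MDGA2, XKR7 and JSRP1 completed the group. SEMA6A had 21.5, 19.1 and 20.6 CPM in shKDM5C and 0.889, 0.741 and 0.934 CPM in shYY1 libraries. COL8A1 had 49.9 ± 0.867 CPM in the shKDM5C and 3.83 ± 0.529 CPM in the shYY1 group (SD, n = 3). The shKDM5C mean was above the shNC mean in PLEK, OXCT1, CREB3L1, MDGA2, XKR7 and JSRP1 and below it in VAV3, SEMA6A and COL8A1, differences that were not tested here.

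**Figure D2:**
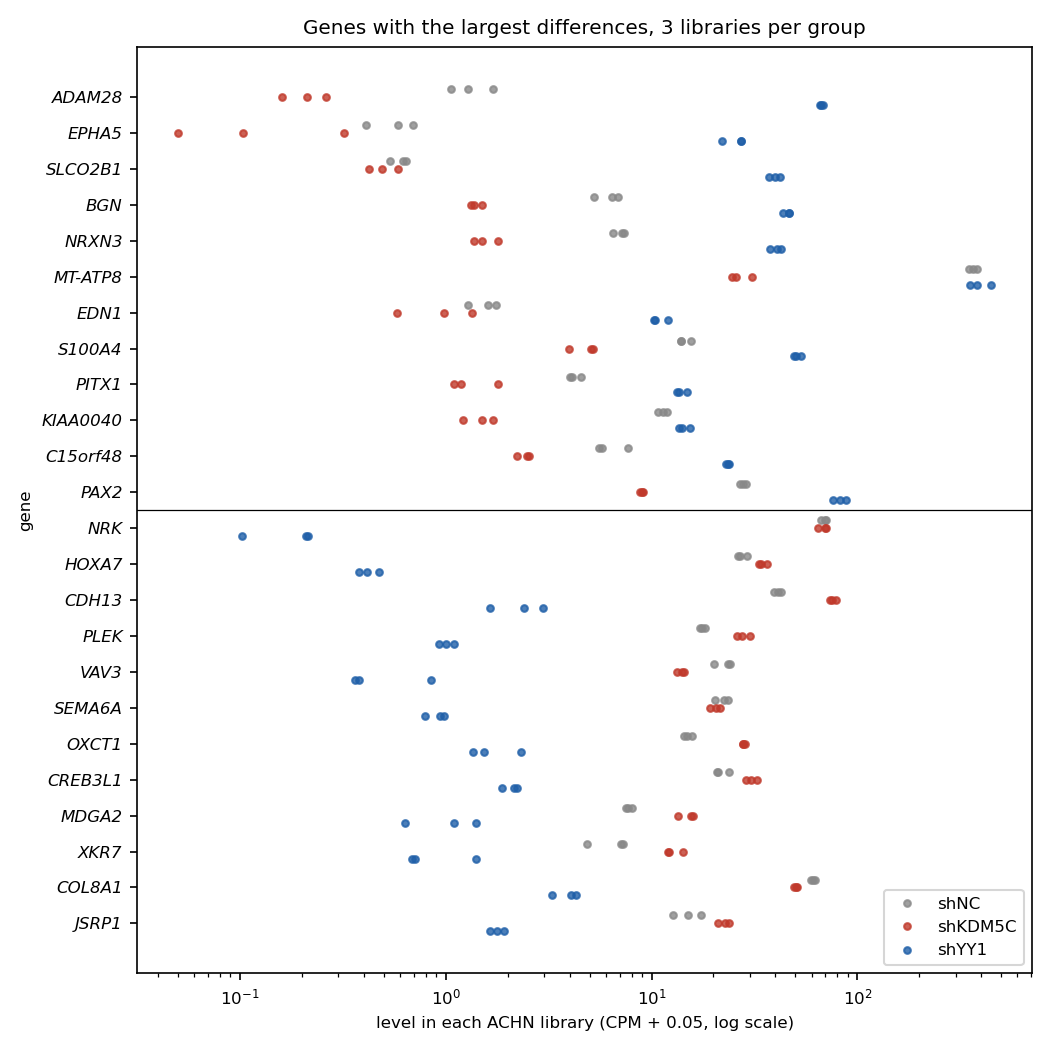
Level in each ACHN library (horizontal axis, CPM + 0.05 on a log scale) of the 12 genes most higher and the 12 most lower in shYY1 cells, 3 points per group and gene for shNC (grey), shKDM5C (red) and shYY1 (blue). Blue and red points do not overlap in any gene, which was a condition of the choice. The shNC points lie beside the shYY1 points for MT-ATP8 and beside the shKDM5C points for NRK.

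The gene lists described next were chosen with earlier results of these data known, so their counts are descriptions. The shares over all genes tested, 30.1% higher and 30.5% lower at an adjusted p under 0.05, are the background for every count that follows. The first list held 23 proteins of H3K4 methylation, its enzymes and the partners of their complexes, together with the H3K27 demethylases KDM6A and KDM6B. Of these, 5 were higher (21.7%) and 8 lower (34.8%), and none exceeded 0.54 in size. The related demethylase KDM5B was lower in shYY1 cells, with 104 ± 4.68 CPM in shKDM5C against 71.0 ± 2.54 CPM (SD, n = 3). Of 40 Polycomb proteins and YY1 partners tested, 9 were higher (22.5%) and 16 lower (40%). RYBP, which links YY1 to Polycomb complexes, had 83.1 ± 5.32 CPM in the shKDM5C and 48.1 ± 3.02 CPM in the shYY1 group (SD, n = 3), a log2 fold change of -0.78, and INO80C, a subunit of the INO80 remodeller that works with YY1, differed by -1.14.

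Of 54 G2/M genes, 5 were higher and 32 lower (9.26% and 59.3%), with a median of -0.22 that became -0.12 when the median of each gene's 10-Mb chromosome window was taken off. Of 43 S phase genes, 6 were higher and 18 lower (13.95% and 41.9%). Their median of -0.05 became -0.09 with the window median taken off, where the median over all genes tested was -0.00027. The nuclear envelope receptor gene LBR differed most, with 248, 235 and 245 CPM in shKDM5C and 76.1, 80.8 and 75.9 CPM in shYY1 libraries (log2 fold change -1.63, SE 0.0376). The kinetochore gene NDC80 (-1.21) and the thymidylate synthase gene TYMS (-0.98) both lie in the first 20 Mb of chromosome 18, a region described further on. ECT2, a regulator of cytokinesis, was higher at 177 against 123 CPM. Of 26 targets of p53, 13 were higher and 7 lower, with the ribonucleotide reductase gene RRM2B at 109 ± 4.08 CPM in shYY1 and 47.0 ± 1.44 CPM in shKDM5C cells (SD, n = 3).

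Among the 6 genes that the study followed by name, 3 were higher and 1 lower in shYY1 cells. The junction protein gene JAM3 had 32.6, 28.8 and 28.2 CPM in shKDM5C and 19.2, 18.2 and 18.5 CPM in shYY1 libraries, a log2 fold change of -0.67 ± 0.0702 (SE, adjusted p = 2.95e-08, edgeR). The condensin genes SMC2 (0.38) and SMC4 (0.22) and the lamin gene LMNB1 (0.22) were slightly higher. The kinetochore gene KNTC1 had 101 ± 8.68 CPM in shKDM5C cells and a log2 fold change of 0.00, and the cell cycle factor FOXM1 had 215 ± 3.12 against 213 ± 2.59 CPM (SD, n = 3), neither of which passed the test (adjusted p = 0.980 and 0.955, edgeR).

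Of 77 mitochondrial ribosomal protein genes, 7 were higher and 44 lower, with a median of -0.16, and MRPL23 differed by -1.06 and MRPL21 by -0.90. Of 26 nuclear genes of complex IV and the ATP synthase, 4 were higher and 14 lower, and ATP5F1B, the catalytic subunit of the synthase, had 1047 ± 2.86 CPM in the shKDM5C and 630.2 ± 4.99 CPM in the shYY1 group (SD, n = 3), with 696 CPM in shNC cells. Of 79 cytosolic ribosomal proteins, 21 were higher and 28 lower (26.6% and 35.4%), close to the shares over all genes. Of 17 genes of the heat shock response, 11 were lower, among them the chaperonin genes HSPD1 (-0.57) and HSPE1 (-1.02), and 4 were higher, among them the small heat shock protein gene HSPB1 (1.04). HSPA1B (-1.26) and RPL26 (-1.55) have near-identical copies in the genome, so their values are uncertain.

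Of 35 genes of cholesterol and fatty acid synthesis, 10 were higher and 21 lower. The elongase gene ELOVL6 had 30.4, 30.5 and 30.0 CPM in shKDM5C and 5.02, 5.35 and 5.60 CPM in shYY1 libraries, on either side of the shNC mean of 15.2 CPM. Of 34 targets of NRF2, 9 were higher and 18 lower, with the heme oxygenase gene HMOX1 at 199 ± 4.65 CPM in shKDM5C, 106 ± 1.93 CPM in shYY1 (SD, n = 3) and 50.1 CPM in shNC cells. Of 34 genes of the ATF4 and amino acid response, 12 were higher and 18 lower. The 2 chains of the large neutral amino acid transporter were among the higher ones. SLC7A5 had 1271, 1269 and 1277 CPM in shKDM5C and 3194, 3178 and 3109 CPM in shYY1 libraries, a log2 fold change of 1.33 (SE 0.0233), and its partner SLC3A2 differed by 0.91.

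EPAS1, which encodes HIF-2 alpha, the main oxygen-regulated factor of renal cancer, had 238, 248 and 236 CPM in shKDM5C and 662, 663 and 648 CPM in shYY1 libraries, with 603 CPM in shNC cells. The shYY1 and shNC levels were therefore close and the shKDM5C level lay well below (log2 fold change 1.46, SE 0.0289). VEGFA, an angiogenic growth factor, differed by 0.92, whereas ANGPTL4 (-1.19) and the glycolytic gene GAPDH (-0.58) were lower, and of the 39 genes of the list 9 were higher and 19 lower.

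ITGB1, the beta subunit common to most integrins, had 291, 289 and 289.8 CPM in shKDM5C and 1286, 1331 and 1334 CPM in shYY1 libraries, with 1053 CPM in shNC and 1492 CPM in Dsh cells. The shKDM5C libraries were thus the lowest of the 4 groups, with a log2 fold change of 2.20 ± 0.0267 (SE, adjusted p = 1.97e-24, edgeR). ITGB8 differed by 1.75, and the beta subunit ITGB3 (-2.57) and the alpha subunits ITGA4 (-1.25) and ITGA6 (-1.15) were lower, so that 6 of 17 integrins were higher and 9 lower.

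Of 37 collagens and laminins, 19 were higher and 12 lower, 3 and 4 of them past the threshold. COL16A1 (3.21), the basement membrane linker gene NID2 (2.34) and COL1A1 (1.69) were the highest of those with at least 5 CPM, and COL8A1 (-3.69), COL5A2 (-2.44) and the laminin chain LAMA1 (-2.01) the lowest. COL1A1 had 48.8 ± 2.51 CPM in the shKDM5C and 156 ± 2.81 CPM in the shYY1 group (SD, n = 3), both below the 579 CPM of shNC cells. The epithelial cadherin gene CDH1 had 4.67, 5.12 and 6.89 CPM in shKDM5C and 40.6, 43.8 and 40.3 CPM in shYY1 libraries, close to the shNC mean of 47.5 CPM, with a log2 fold change of 2.91 (SE 0.0959). Other junction and epithelial-mesenchymal genes differed in both directions. The mesenchymal filament gene VIM was lower (-0.66), the repressor gene SNAI2 was higher (1.64), EPCAM was lower (-1.12) and the occludin gene OCLN was lower (-1.92), while the tight junction adaptor TJP3 was higher (2.59).

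Of 26 genes of the EGF receptor and MET axes, 5 were higher and 13 lower. The receptor EGFR had 893, 897 and 919.7 CPM in shKDM5C and 1602, 1648 and 1623 CPM in shYY1 libraries (log2 fold change 0.86, SE 0.0247), while its ligand HBEGF had 25.1 ± 1.04 CPM in the shKDM5C and 3.46 ± 0.658 CPM in the shYY1 group (SD, n = 3), a log2 fold change of -2.85. In the TGF-beta and BMP list 20 of 36 genes were higher and 11 lower, with the receptor TGFBR2 at 1.44 and the ligands GDF6 at 1.504 and TGFB2 at -1.16. In the IGF axis the binding protein gene IGFBP3 had 198, 181 and 203 CPM in shKDM5C and 1169.7, 1097 and 1185 CPM in shYY1 libraries, and PAPPA, a protease that cleaves IGF binding proteins, differed by 2.05. In the WNT list the ligand WNT5B (-1.78) and the secretion factor WLS (-1.61) were lower and the WNT inhibitor NOTUM was higher (5.68, from 0.162 to 8.54 CPM). Only 19 of 30 cytokines and chemokines passed the filter on low counts, 11 of them higher and 4 lower, so the 19 do not stand for all 30. IL15 (1.36), IL32 (1.24) and CCL2 (1.14) were highest among those with at least 5 CPM.

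Among lists with at least 10 members tested, the protocadherins (76.9%) and the guidance molecules (66.7%) had the largest shares of members higher in shYY1 cells. Of 42 semaphorins, plexins, ephrins and their receptors, 28 were higher and 10 lower, with a median of 0.39 that became 0.16 when the median of each gene's chromosome neighbourhood was taken off. SEMA4D (1.70) and EFNB3 (1.65) followed EPHA5 on the higher side, and EPHA4 (-1.76) followed SEMA6A on the lower. The clustered protocadherins are surface proteins whose gene arrays on chromosome 5 depend on CTCF and DNA looping. Only 13 of 53 passed the filter on low counts, 10 of them higher and 1 lower, with a median of 1.66. PCDHGB7 had 1.80 ± 0.249 CPM in shKDM5C, 11.8 ± 0.877 CPM in shYY1 (SD, n = 3) and 6.84 CPM in shNC cells, and PCDHGA7 differed by 1.66. PCDHGC3 was the lower one, at -0.49. These 3 named genes belong to the gamma array, whose members share their last exons, so reads there cannot be given to one gene. A gene that passed the filter only through its level in shYY1 cells had to differ, so the 13 do not stand for all 53.

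Of 35 HOX genes, 9 were higher and 15 lower, with HOXA7 by far the lowest. Its neighbours HOXA6 (-1.06) and HOXA4 (1.10) differed in opposite directions, and HOXB8 differed by -1.10. Among kidney lineage factors PAX2 was joined by SIX2 (1.18) and SALL1 (0.93), which act in nephron progenitors, while PAX8, an abundant marker of the lineage, differed by 0.37, and of 25 factors 10 were higher and 10 lower. Among 21 imprinted genes, 11 were higher and 6 lower, with a median of 0.18 and a range from -2.40 to 5.18. Past the threshold 3 were higher and 2 lower, and the genes named next are from the lower side. PEG10, a retrotransposon-derived gene expressed from the paternal allele, had 618, 605 and 609.9 CPM in shKDM5C and 112, 114 and 118 CPM in shYY1 libraries, with 427 CPM in shNC cells (log2 fold change -2.40, SE 0.0303). MEST (-1.80) and the noncoding RNA MEG3 (-1.40, from 67.3 to 25.4 CPM, with 139 CPM in shNC cells) were also lower.

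**Figure D3:**
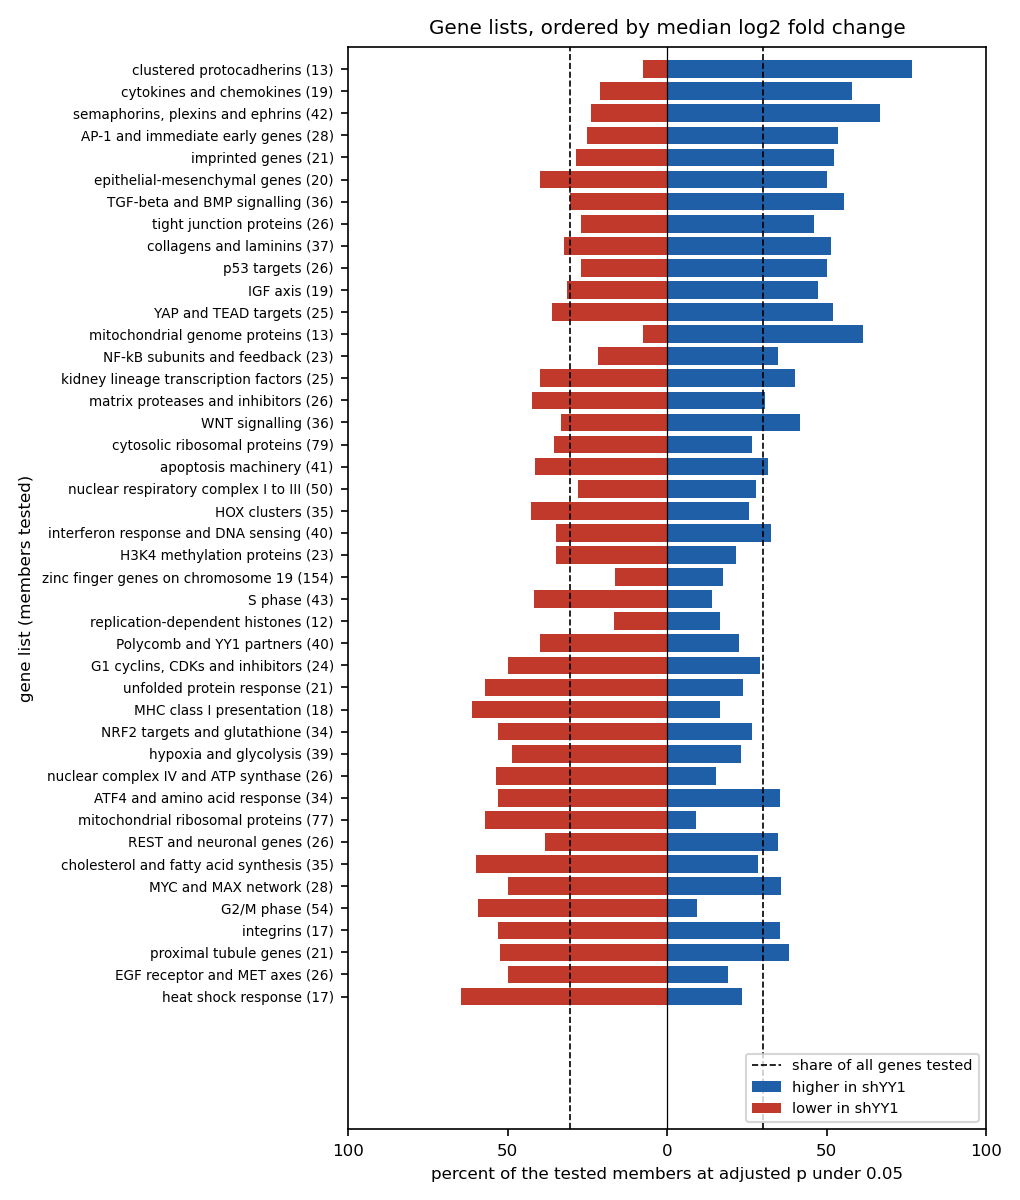
Percent of the tested members of each gene list that were higher (blue, to the right) or lower (red, to the left) in shYY1 than in shKDM5C cells at an adjusted p under 0.05, ordered by the median log2 fold change, for the 43 lists with at least 10 members tested. Dashed lines mark the share of all genes tested, 30.1% higher and 30.5% lower, and clustered protocadherins stand at the top and the heat shock response at the bottom.

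The differences were not spread evenly over the genome. Genes of chromosomes 7, 9 and 8 had positive median log2 fold changes of 0.38 (866 genes, 65.4% higher and 8.20% lower), 0.31 (645 genes, 57.4% and 13.95%) and 0.27 (569 genes, 48.7% and 17.6%), and those of chromosome 17 a negative one of -0.24 (984 genes, 14.2% and 50.8%). Relative to the shNC mean, the chromosome 7 medians were -0.18, -0.17 and -0.17 in the shKDM5C libraries. They were 0.17 in each of the 3 shYY1 libraries, so that these 2 groups lay on opposite sides of shNC. The Dsh libraries, at -0.16, -0.15 and -0.17, lay with shKDM5C. Mean Dsh medians were also below shNC on chromosomes 9 (-0.17) and 8 (-0.16). On chromosome 17 the means were 0.13 in Dsh, 0.06 in shKDM5C and -0.18 in shYY1 cells. The HK-2 contrast had medians of 0.058, 0.013, 0.096 and 0.085 on chromosomes 7, 9, 8 and 17. The clearest block was the first 20 Mb of chromosome 18. Of its 67 genes tested, 53 were lower in shYY1 cells and 0 higher, with a median of -0.84. Its medians relative to shNC were 0.24, 0.23 and 0.26 in shKDM5C, -0.56, -0.50 and -0.58 in shYY1 and 0.15, 0.11 and 0.08 in Dsh libraries. The 165 other genes of the chromosome had a median of -0.09.

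**Figure D4:**
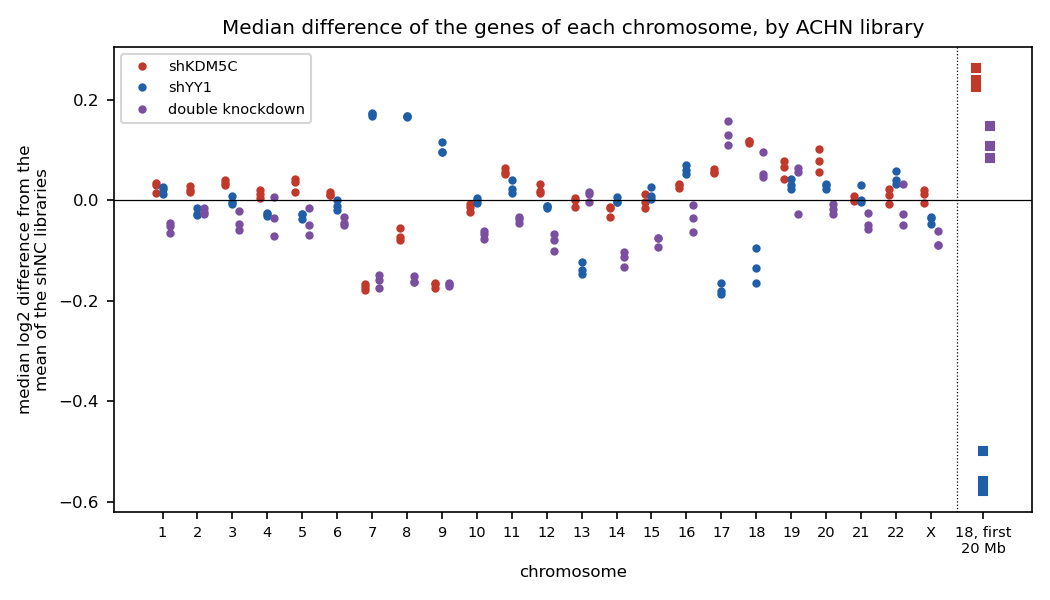
Median log2 difference from the mean of the shNC libraries (vertical axis) over the genes of each chromosome, and over the first 20 Mb of chromosome 18, with 1 point per ACHN library for shKDM5C (red), shYY1 (blue) and Dsh (purple). Libraries of a group lie together, with shYY1 above 0 and both shKDM5C and Dsh below 0 on chromosomes 7, 8 and 9. The chromosome 18 block lies between -0.58 and -0.50 in shYY1.

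In windows of 10 Mb with at least 20 genes tested, 26 of 262 had a median of at least 0.3 in size, of which 9 lay on chromosome 7, 6 on chromosome 8 and 5 on chromosome 9. LAMA1, NDC80, TYMS and EPB41L3 lie in the chromosome 18 block. On chromosome 7, with its median of 0.38, lie IGFBP3 and EGFR, which were higher in shYY1 cells. PEG10, MEST and HOXA7 lie there too but were lower. Genes rich in GC were also higher, with a median of 0.17 in the eighth of genes above 60.3% GC. The part that these regional and compositional shifts have in single genes was not tested. With the window median taken off each gene, 493 genes were higher and 321 lower past the threshold.

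In the same contrast of HK-2 cells, 81 genes were higher and 152 lower in shYY1 than in shKDM5C cells (0.509% and 0.955% of 15914 genes tested, 1.46% together). One HK-2 shKDM5C library stood apart, with 11.8% of its counts on mitochondrial genes against 5.13% and 5.28% in the other 2, and without it the counts were 182 and 258. They were 36 and 95 or 33 and 98 without either of the other shKDM5C libraries, 9 to 12 and 38 to 46 without a shYY1 library, and 21 and 68 with a replicate block. The targets differed in the labelled direction in HK-2 cells too, KDM5C by 1.85 and YY1 by -1.79 without that library, or 2.09 and -1.89 with it. Past the threshold in both lines and in the same direction were 7 genes higher, 2.32% of the 302 ACHN and 11.1% of the 63 HK-2 genes tested in both, and 7 lower, 3.10% of 226 and 7.45% of 94. Without the library these counts were 11 and 11. Another 11 and 4 genes were past the threshold in opposite directions, or 21 and 7 without the library.

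The shared genes were chosen by this overlap after their values were seen. They include SNAI2 on the higher side, and on the lower side XKR7, the angiotensinogen gene AGT, the claudin gene CLDN2, the transporter gene SLC17A3, ACSL5, TRABD2B and AP4S1. XKR7 had means of 26.4 and 6.57 CPM in HK-2 shKDM5C and shYY1 cells, and of 12.8 and 0.884 CPM in ACHN. The contrast itself differed between the lines for 4017 of 17827 genes at an adjusted p under 0.05 (22.5%, edgeR), higher in ACHN for 2094 (11.7%) and lower for 1923 (10.8%). Without the HK-2 library that stood apart these counts were 3818 and 3951, and with a replicate block 1341 and 1205.

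PAX2, SLC34A2 and CDH1 had opposite contrasts in the 2 lines. PAX2 had 26.7 CPM in shKDM5C and 2.78 CPM in shYY1 HK-2 cells (log2 fold change -3.27, or -3.55 without the library that stood apart), against 8.92 and 82.1 CPM in ACHN. The phosphate transporter gene SLC34A2 had 259.7, 275 and 277 CPM in shKDM5C and 797, 849 and 811 CPM in shYY1 ACHN libraries, but 12.3 and 0.236 CPM on average in HK-2 cells. CDH1 differed by -2.53 in HK-2 cells, or by -2.69 without that library. NRK, near 0 in shYY1 ACHN cells, had 52.6 CPM in shKDM5C and 55.9 CPM in shYY1 HK-2 cells, and HOXA7 had 18.3 and 14.6 CPM. For SYT16 and EPB41L3, the ACHN shYY1 libraries held 1 read pair each in all. In ACHN the ratio of shKDM5C to shYY1 was 318 for SYT16 (95% exact interval 56.6 to 12582) and 205 for EPB41L3 (36.4 to 8148), which cover counting error only, and in HK-2 cells the levels were 17.1 and 9.38 CPM for SYT16 and 399.6 and 283 CPM for EPB41L3. TCIM had no read pair in the ACHN shKDM5C libraries and was at least 25.7-fold higher in shYY1 against a floor of 3 counts over the group (the exact 95% interval of the ratio starts at 20.4), with 40.6 and 74.98 CPM in HK-2 cells. SLFN11 had a mean of 109 CPM in shKDM5C ACHN cells and a log2 fold change of -2.15, and had 0 and 0.119 CPM in HK-2 cells, too low for a fold change.

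**Figure D5:**
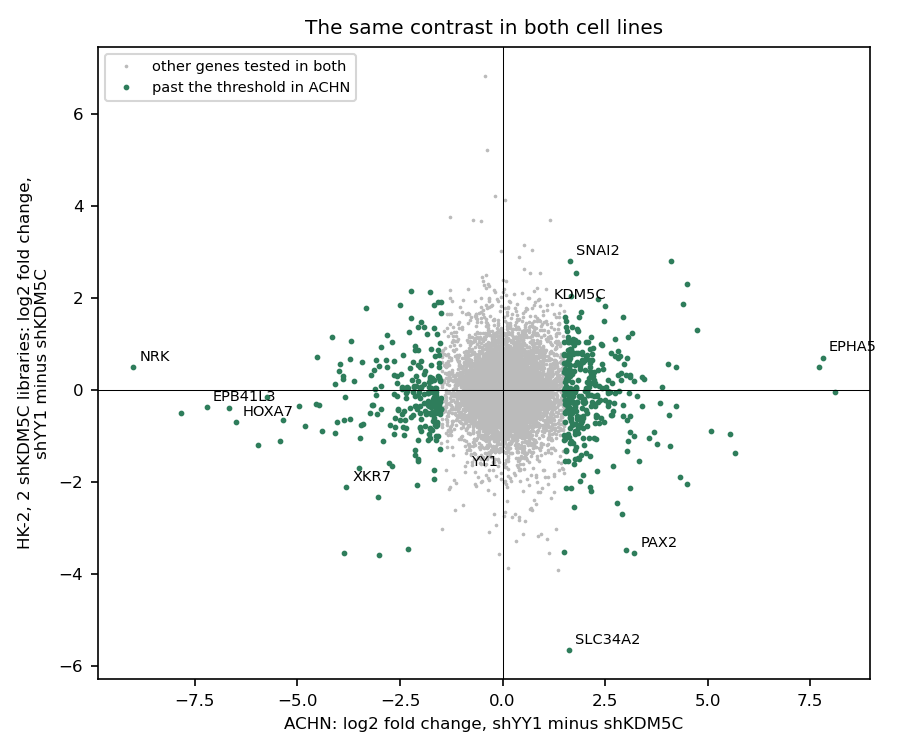
Log2 fold change of shYY1 minus shKDM5C in HK-2 cells without the shKDM5C library that stood apart (vertical axis) against that in ACHN cells (horizontal axis), for each gene tested in both, with genes past the ACHN threshold in green. NRK at -9.01 and EPHA5 at 7.81 in ACHN lie at 0.50 and 0.71 in HK-2, and PAX2 lies at 3.21 and -3.55.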

How the data were processed

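RNA-seq of ACHN and HK-2 cells was examined in 24 libraries, 2 cell lines with 4 groups of 3 replicates each, grouped by their labels. The authors aligned paired-end reads of libraries made with the NEBNext Ultra kit to hg38 and counted read pairs per gene. HISAT2 2.0.5 and featureCounts 1.5.0-p3 are named in the submitters' processing notes, and the deposited headers name featureCounts 2.0.1 with Ensembl release 84. Each deposited table holds the raw counts of 1 library, not normalized. Strand was not used, so overlapping and antisense genes cannot be told apart, nor can near-identical copies. Of 60675 genes, 56558 were given a symbol, and the 4117 named by their identifier hold 0.243% of the counts.

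The contrast was fitted to the 6 shYY1 and shKDM5C libraries with edgeR 4.0.16 in R 4.3.3 (filterByExpr, TMM, quasi-likelihood F test), adjusting p-values by Benjamini-Hochberg across every gene tested, and likewise in HK-2. The difference between lines was an interaction term over 12 libraries. Standard errors were derived from the F statistic. CPM used TMM factors over the 12 libraries of a line, and library differences log2(CPM + 0.5). With 3 against 3, an exact permutation test of 1 gene cannot go below p = 0.1. Totals ranged from 15926561 to 24272298 counts. Intervals and floors cover counting error only, since read pairs without molecular identifiers are not independent molecules. Simulated counts gave 15821 genes tested, with the changed genes drawn only from those with higher counts. All 100 genes changed by 1 and all 100 changed by 2 on the log2 scale were called, and 5.66% of calls were unchanged genes. Recovery at low counts was not tested, and far fewer genes were changed than were called in the data. For the difference between lines (17482 genes), 38% of genes changed by 1 and 93% of those changed by 2 were called. There 2.96% of calls were unchanged genes. Without HK-2 shKDM5C replicate 1 (17960 genes), 86% and 95% were called, and 9.95% of calls were unchanged genes.

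The libraries, gene lists, windows and motif were chosen with earlier results of these data known. Genes named are KDM5C, YY1, the 6 genes named by the study, the 12 protein-coding genes per direction with the largest fold change past the threshold (10 CPM or more in the higher group, no overlap of replicates), up to 3 list members per direction (at least 5 CPM, adjusted p under 0.05), and the 4 genes per direction with the largest difference between lines. Others are said to be chosen after their values were seen, as MT-ATP6 and GC and length classes were. Promoters are RefSeq's for GRCh38.p14, matched by symbol for 11357 of the genes tested. Alternatives were DESeq2 1.42.0, RLE factors, total counts, no filter, a fit on all 4 groups, a minimum of 10 counts throughout a group, a replicate block, GC and length trends taken out (splines with 5 degrees of freedom), other thresholds, windows of 20 Mb, a shorter motif and each library left out. Taking off the window median was added after seeing the data. Results for some genes are not reported here.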

Additional observations from a re-analysis of the deposited data

Results flagged for a closer look

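The contrast of shYY1 with shKDM5C differed between ACHN and HK-2 cells, tested as an interaction over 12 libraries with edgeR. The difference, ACHN minus HK-2 on the log2 scale, was above 0 for 2094 genes and below 0 for 1923 at an adjusted p under 0.05. Both targets were among them, with a larger contrast in HK-2 and differences of -0.999 for KDM5C and 0.972 for YY1. Of the genes named by the study, SMC2 (0.957) and SMC4 (0.744) differed.

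Among the genes with the largest ACHN differences and at least 1 CPM in a HK-2 group, the difference was positive for EPHA5 (7.21), PAX2 (6.5), BGN (5.9), MT-ATP8 (5.2), EDN1 (4.17), NRXN3 (3.52), S100A4 (2.98) and PITX1 (2.93). It was negative for NRK (-9.06), HOXA7 (-6.14), COL8A1 (-4.71), CREB3L1 (-4.36), SEMA6A (-4.21), VAV3 (-3.97), MDGA2 (-3.84), OXCT1 (-3.21) and XKR7 (-1.8). These genes were picked by the size of their ACHN contrast, which is part of the difference, so its sign largely follows from the choice. XKR7 was lower in shYY1 cells of both lines. The genes picked for the size of the difference were SLC34A2 (7.29), TCIM (6.79), SYT16 (-6.93) and EPB41L3 (-6.67), the last 3 of which rest on 1 or 0 read pairs in an ACHN group.

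Without the HK-2 shKDM5C library with the high mitochondrial share, the MT-ATP8 difference was 3.801, that of SMC2 was 0.49 and that of SMC4 was 0.45. Its part in the values given with all libraries was not tested further.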

How the results depend on the processing

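Every one of the 862 genes past the threshold kept its sign under each alternative in which it was tested, apart from 1 gene without shKDM5C replicate 2, and between 785 (GC and length trends taken out) and 862 remained past the threshold. Counts of higher and lower genes were 848 and 516 with no filter on low counts and 1161 and 682 at a log2 difference of 1 or more in size. Leaving out one library gave 578 to 652 higher and 349 to 384 lower genes past the threshold, and 4493 to 4698 and 4605 to 4794 at any fold change. KDM5C then ranged from 1.06 to 1.10 and YY1 from -0.95 to -0.89. Replicate numbers did not pair the libraries, since deviations of same-numbered libraries correlated at 0.0095, 0.015 and 0.0094, and a replicate block gave 534 and 323 genes in ACHN.

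HK-2 counts of higher and lower genes depended on the fit. They were 133 and 205 with DESeq2, 184 and 262 with all 4 groups, 21 and 68 with the replicate block, 150 and 203 with no filter, 112 and 228 with GC and length trends taken out, 179 and 266 at an unadjusted p, and 159 and 282 at a log2 difference of 1 or more in size. They were 182 and 258 without shKDM5C replicate 1, 36 and 95 without shKDM5C replicate 2, 33 and 98 without shKDM5C replicate 3, and 9 to 12 and 38 to 46 without a shYY1 library. The interaction gave 1341 and 1205 genes with the replicate block and 1466 to 3818 and 1332 to 3951 without 1 library, the highest without HK-2 shKDM5C replicate 1. The cause of these changes was not tested.

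Windows with a median of at least 0.3 in size numbered 42 with DESeq2, 41 with no filter, 17 in windows of 20 Mb and 25 to 32 without 1 library. The shorter ATGGCGG stood in 7.05% of promoters of higher and 10.6% of lower genes, against 8.86% for all genes tested and 8.71% for those that did not pass. Of 43 lists, 15 had a median above 0, and 15 to 18 without 1 library. Of the 280 genes with an alternative, 268 kept direction and side of the threshold throughout. KNTC1 turned to -0.0060 (DESeq2), -0.0023 (all 4 groups) and -0.012 (no filter), and ranged from -0.042 to 0.072 without 1 library. FOXM1 turned to 0.00043 (RLE factors), 0.0091 (total counts) and ranged from -0.017 to 0.0083 without 1 library, and MRPL41 from 0.40 to -0.15 with GC and length trends taken out. No alternative varied depth, so its limit was not tested.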

Other observations

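Of 154 zinc finger genes on chromosome 19, 27 were higher and 25 lower in shYY1 cells, and of 40 genes of the interferon response and DNA sensing 13 were higher and 14 lower, with OAS2 at -1.03 and SAMD9L at 0.93. Of 18 genes of MHC class I presentation, 3 were higher and 11 lower, with a median of -0.11. Of 28 AP-1 and immediate early genes, 15 were higher and 7 lower, among them EGR1 at 1.85 and FOSL1 at -0.98. Of 21 proximal tubule genes, 8 were higher and 11 lower, with the phosphate transporter gene SLC34A3 at 1.36 and the scaffold gene PDZK1 at -2.22. Of 26 REST and neuronal genes, 9 were higher and 10 lower, with SCN2A at 1.06 and NEFL at -1.33.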
